A study of Rattus norvegicus with 7 samples.

Results

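The mir-30 family comprises 6 miRNA genes in the rat, Mir30a, Mir30b, Mir30c1, Mir30c2, Mir30d and Mir30e. All miRNA features of the deposited table whose symbol begins with mir-30 followed by a letter from a to e were taken, which gave these 6 of 571 miRNA features and of 5491 noncoding features in all. The members were selected on their symbol, and the family itself was chosen by its measured FPKM levels at the 7 ages, so the levels below are descriptions and no test was run on them. Retinas came from untreated Wistar WU rats kept on a 12:12 light/dark cycle, at postnatal days 1, 3, 5, 7, 10, 15 and 21 (P1 to P21), with birth counted as day 0. At each age the RNA of 3 retinas was pooled into 1 small RNA library, so every level is 1 value per age with no replicate between animals, and no difference between ages could be tested. The levels are FPKM values, nominally the sequenced fragments per kilobase of a feature and per 1000000 fragments in all.

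A miRNA is cut from a hairpin precursor, and either arm of the hairpin (5p or 3p) can yield a mature strand that guides the silencing complex to messenger RNAs. Targets are read mainly through the seed, the bases near the 5′ end of the mature strand, so miRNAs with a common seed form a family with overlapping targets. Members of the mir-30 family are broadly expressed and abundant in many tissues, the kidney and the nervous system among them. Known targets include Beclin 1, a starter of autophagy, and the Notch ligand Dll4 of endothelial cells. The genes lie in pairs along the chromosomes, and the members of a pair may be transcribed together.

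The mature 5p strands are shown first because they carry the shared seed and the bases by which the members differ. They were taken from RefSeq (GRCr8), whose table held 4 of the 6 members (Mir30a, Mir30c1, Mir30c2 and Mir30e). The capitals mark the seed, bases 2 to 8 from the 5′ end. The strand named 30c-5p is encoded by both Mir30c1 and Mir30c2.
rno-miR-30a-5p: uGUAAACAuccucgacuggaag
rno-miR-30e-5p: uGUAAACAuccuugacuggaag
rno-miR-30c-5p: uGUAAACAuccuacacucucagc
rno-miR-384-5p: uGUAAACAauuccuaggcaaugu

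The seed was the same in all of them, and in the RefSeq table it occurred in 4 distinct mature strands of 5 genes among 724 mature entries. The fifth gene is Mir384, which is no member of the family by name. Counted from 1 at the 5′ end, rno-miR-30a-5p and rno-miR-30e-5p differed by the single substitution C13U. Between 30a-5p and 30c-5p the first 12 bases were identical and 5 later bases differed (C13A, G14C, G18C, G19U and A20C). A library read of 30c-5p can therefore be told from 30a-5p by its 3′ part, whereas it fits Mir30c1 and Mir30c2 equally well. The strands of Mir30b and Mir30d were not held, so whether such a read can be told from theirs was not compared.

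The hairpins of both 30c genes are shown because the deposited values are given per gene and these genes differ only outside the 5p strand. Here the capitals mark both mature arms.
Mir30c1 hairpin: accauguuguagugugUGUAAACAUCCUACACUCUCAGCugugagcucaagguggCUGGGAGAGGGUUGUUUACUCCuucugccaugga
Mir30c2 hairpin: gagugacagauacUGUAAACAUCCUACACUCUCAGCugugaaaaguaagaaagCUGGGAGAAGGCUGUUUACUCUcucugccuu

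The 3p strands of the 30c hairpins differed at 3 bases (G9A, U12C and C22U, with the strand of Mir30c1 first). How the authors' pipeline shared a read between genes of identical sequence is not given in the sources used here. The values of Mir30c1 and Mir30c2 are therefore not independent measurements, and the part of read assignment in the 30c levels below was not tested.

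In Rnor_6.0, the build of the deposited table, the 6 genes form 3 pairs on 3 chromosomes. Mir30a (chr9:29542635-29542705, plus strand) and Mir30c2 (chr9:29562376-29562459, plus strand) are 19670 bases apart. Mir30b (chr7:109282658-109282752, minus strand) and Mir30d (chr7:109286463-109286544, minus strand) are 3710 bases apart. Mir30c1 (chr5:139699877-139699965, minus strand) and Mir30e (chr5:139702872-139702963, minus strand) are 2906 bases apart. In the RefSeq annotation of GRCr8, Mir30c1 and Mir30e lie within Nfyc, which encodes a subunit of the CCAAT-binding factor NF-Y. Mir30b and Mir30d lie within the long noncoding RNA gene LOC102551574, Mir30c2 lies within the long noncoding RNA gene LOC134480562 and the pseudogene Rbx1-ps1, and no gene is listed around Mir30a.

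The libraries held an estimated 297495 to 1362637 alignments, of which 39.1% to 74.2% fell on miRNA features. These numbers were estimated from the steps between low FPKM values, each step being the worth of 1 alignment. The P1 library had 1 step, the P3 to P15 libraries 2 and the P21 library 4, whereas the methods state that each pool was sequenced 2 times. All intervals below are 95% intervals that use the largest step of a library. For a single gene this makes them as wide as whole alignments allow. Intervals of a sum or share treat the counts of its genes as independent. Such intervals are too narrow where the same read was counted at more than 1 gene. All these intervals cover counting error only, since reads multiplied by PCR do not stand for separate molecules. Markers of the retina (Mir124-1, Mir124-2, Mir124-3, Mir183 and Mir96, 5 of 6 listed) were above 0 at every age and went from 94204 per 1000000 miRNA alignments at P1 to 504089 at P21. In pooled tissue, fewer cells of a type cannot be told apart from less RNA per cell.

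The family as a whole was abundant at every age. Its summed level was 1791181, 1537722 and 1395798 FPKM at P1, P3 and P5, 801074 at P7, and 1971075, 1836883 and 1186799.7 at P10, P15 and P21. The sum was thus lowest at P7, highest at P10, and lower at P21 than at every age but P7. As a share of all miRNA alignments, the family made up 19.1%, 13.7% and 10.3% at P1, P3 and P5, 7.83% at P7, and 12.1%, 12.0% and 6.64% at P10, P15 and P21. On this scale the lowest age was P21, not P7, and P1 was the highest. The total of miRNA alignments counts numbered copies of a miRNA as separate features. Among them, Mir124-1, Mir124-2 and Mir124-3 had means of 47576, 47917 and 47450 alignments. Whether the same reads were counted at each copy is not known. The part of such counting in the lower share at P21, and in other levels scaled to miRNA alignments, was not tested.

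The members did not move alike. Mir30a, Mir30b, Mir30d and Mir30e stayed within a 3-fold range over the 7 ages, while Mir30c1 and Mir30c2 were lower by more than 10-fold at P7 and P21 than at most other ages. As deposited, all 6 loci had their lowest level at P7, where 21% of the 571 miRNA features also had theirs. Among the 344 features with a mean of at least 20 alignments the share was 28.2%. With each library scaled to its miRNA total, 5 of the 6, all but Mir30d, had P7 as the lowest age (15.4% of the features). With TMM, a trimmed-mean scaling, 4 did (9.46%), without Mir30d and Mir30e. The highest level was at P10 for Mir30a, Mir30c1, Mir30d and Mir30e (11.4% of the features) and at P15 for Mir30b and Mir30c2 (6.48%). The peak at P10 depended on the scaling. No member peaked at P10 with the miRNA total (5.78% of the features) or with TMM (6.3%). With TMM all 6 peaked at P15 (17.5% of the features). As shares of all miRNA alignments, all 6 were highest at P1. On that scale Mir30c1, Mir30c2 and Mir30e were lowest at P7, and Mir30a, Mir30b and Mir30d were lowest at P21.

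**Figure D1:**
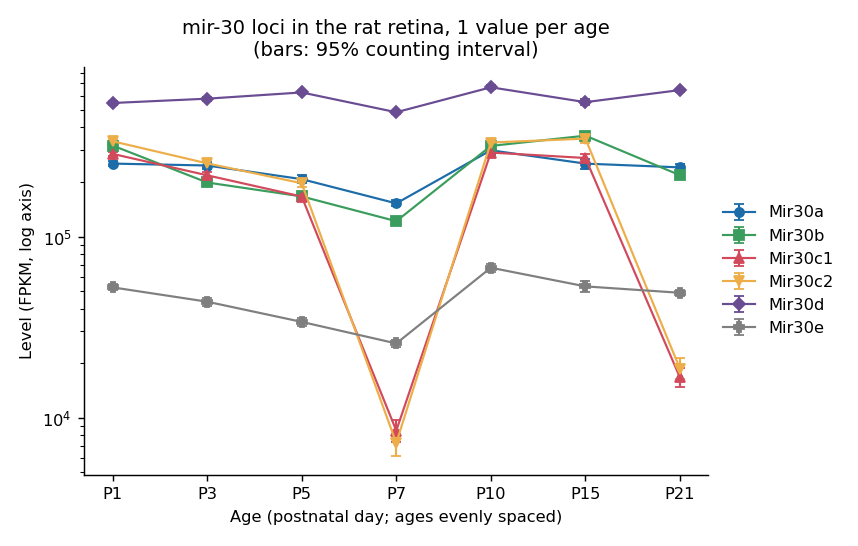
Level of each mir-30 locus (FPKM, log axis) at the 7 ages (postnatal day, evenly spaced), 1 library value per point, with 95% counting intervals as bars. Mir30c1 and Mir30c2 lie between 7271 and 18663 FPKM at P7 and P21, while the other 4 loci stay within a 3-fold range.

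Mir30d, the most abundant member on the FPKM scale at all 7 ages, varied least. Its level was 545853, 576722 and 624301 FPKM at P1, P3 and P5, 485376 at P7, and 666469, 551727 and 643346 at P10, P15 and P21. The highest age exceeded the lowest by 1.37-fold. As deposited, the counting interval of P7 (476699 to 494211 FPKM) lay below those of all other ages. Among the 76 miRNA features with a mean of at least 500 alignments, this was the smallest range as deposited, against a median range of 2.11 on the log2 scale. Per 1000000 miRNA alignments its range ranked 10 from the smallest, and its level went from 52634 at P1 down to 30992 at P21. Mir30d held rank 4 to 7 among all miRNA features at every age by alignments. Its level at P21 was higher than at P1 by 0.24 log2 (95% interval 0.20 to 0.28) as deposited, but lower by 0.39 with scaling to the miRNA total.

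Mir30b, the partner of Mir30d on chromosome 7, varied more. Its level was 318048, 198882 and 166673 FPKM at P1, P3 and P5, 121628 at P7, and 316384, 360528 and 218122 at P10, P15 and P21. The levels were lower at each age up to P7, and as deposited P10 and P15 were close to or above the level of P1. As a share of all miRNA alignments, Mir30b was lower at P10 and P15 than at P1, and lowest at P21. The range was 2.96-fold, and from P7 to P10 the level was 2.60-fold higher. At P21 Mir30b was lower than at P1 by 0.54 log2 (interval 0.50 to 0.59), and it was lower under every scaling run (0.40 to 1.55). By alignments Mir30b ranked as high as 3 at P1 and as low as 11 at P7.

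Mir30a, the gene next to Mir30c2 on chromosome 9, was among the steadier members. Its level was 252845, 246801 and 207530 FPKM at P1, P3 and P5, 152540 at P7, and 299374, 252787 and 240957 at P10, P15 and P21. As deposited, only P7 lay well below the other ages, and the range was 1.96-fold, which ranked 10 from the smallest among the 76 abundant features. The levels of P1, P3 and P15 lay within counting error of that of P21. The counting intervals of their log2 differences from P21 included 0 (-0.0069 to 0.15, -0.052 to 0.12 and -0.038 to 0.18). This held for the levels as deposited, since with scaling to the miRNA total Mir30a was lower at P21 than at P1 by 0.69 log2.

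Mir30e, the partner of Mir30c1 on chromosome 5, had the lowest FPKM of the family at P1, P3, P5, P10 and P15. Its level was 52502, 43764 and 33862 FPKM at P1, P3 and P5, 25749 at P7, and 67377, 53148 and 49003 at P10, P15 and P21. The course resembled that of Mir30a, with P7 lowest and P10 highest as deposited and a range of 2.62-fold. Its feature is 182 bases long against 82 for Mir30a, and 1 alignment at P1 was worth 19.0 FPKM for Mir30e and 85.7 for Mir30a. This worth was not in simple proportion to feature length, and the reason was not tested. The genes themselves span 92 bases for Mir30e and 71 for Mir30a. In estimated alignments the genes were close, with 2760 for Mir30e and 2950 for Mir30a at P1, and 7112 and 7762 at P21. The ratio of Mir30e to Mir30a in alignments stayed between 0.735 at P5 and 1.01 at P10.

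Mir30c1 was level with Mir30a and Mir30b at most ages but far below them at P7 and P21. Its level was 286049, 217926 and 166388 FPKM at P1, P3 and P5, 8510.15 at P7, and 290932, 271521 and 16709 at P10, P15 and P21. The first 3 ages, P10 and P15 lay at or above the 166388 FPKM of P5, and P7 and P21 lay at or below 16709 FPKM with nothing between. From P5 to P7 the level was 19.6-fold lower, from P7 to P10 it was 34.2-fold higher, and from P15 to P21 it was 16.2-fold lower.

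Mir30c2, on another chromosome, followed the same course. Its level was 335884, 253627 and 197044 FPKM at P1, P3 and P5, 7271 at P7, and 330539, 347172 and 18663 at P10, P15 and P21. The low ages were again P7 and P21, with no age between 18663 and 197044 FPKM. From P5 to P7 it was 27.1-fold lower, from P7 to P10 it was 45.5-fold higher, and from P15 to P21 it was 18.6-fold lower. By alignments Mir30c2 ranked 11 to 19 among the miRNA features at the 5 high ages, and 127 at P7 and 102 at P21.

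For steps of at least 2-fold between neighbouring ages, the 30c loci were the only members that were lower from P5 to P7 (15.6% of all miRNA features) and from P15 to P21 (11% of the features) as deposited. With scaling to the miRNA total or by TMM, Mir30b joined them from P15 to P21 (20% and 16.6% of the features). From P7 to P10, Mir30b, Mir30c1, Mir30c2 and Mir30e were at least 2-fold higher as deposited (25.9% of the features). Only Mir30c1 and Mir30c2 were so with the miRNA total (16.1% of the features) and with TMM (14.4%). From P1 to P21, Mir30c1 and Mir30c2 were at least 2-fold lower as deposited (32.9% of the features), and no member was 2-fold higher (31.5%). With scaling to the miRNA total Mir30b was at least 2-fold lower too, as were 43.6% of the features. A 2-fold lower level at P21 was thus common among the miRNA features.

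Levels at both P7 and P21 at least 2-fold below each other age were found for 8 of the 571 features (1.4%). This count was made after the 30c values were seen, and it included Mir30c1 and Mir30c2, Mir153, Mir374b, Mir450a1, rno-mir-450b-1, AC099304.1 and the let-7 family member Mir98. The lowest of the other ages exceeded the higher of P7 and P21 by 9.96-fold for Mir30c1 and 10.6-fold for Mir30c2. For Mir98, Mir153, Mir374b, Mir450a1 and rno-mir-450b-1 the same margin was 2.06- to 2.93-fold. It was 7.48-fold for AC099304.1, a feature with a mean of 4.82 alignments.

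The share of the family that came from the 30c loci, in which the scaling of a library cancels, showed the same step. Mir30c1 and Mir30c2 together made up 26.7% of the family's alignments at P1 (95% interval 26.2 to 27.1), 24.5% at P3 (23.8 to 25.1) and 20.9% at P5 (20.3 to 21.5). They made up 1.51% at P7 (1.36 to 1.68), 24.3% at P10 (23.7 to 24.9), 25.4% at P15 (24.6 to 26.2) and 2.18% at P21 (1.99 to 2.38). The intervals of P7 and P21 did not overlap with those of any other age. On the FPKM scale, which weights the genes by feature length, the share was 34.7%, 30.7% and 26.0% at P1, P3 and P5, 1.97% at P7, and 31.5%, 33.7% and 2.98% at P10, P15 and P21.

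Of the other loci, Mir30d gained most in share where 30c was low. Its share of the family's alignments was 27.6%, 35.3% and 42.3% at P1, P3 and P5, 54.0% at P7, and 30.7%, 26.8% and 46.7% at P10, P15 and P21. Mir30a kept a share of 8.36% to 11.9% and Mir30e one of 7.03% to 10.9%. Mir30b had the largest share of any member at P1 (28.9%) and P15 (31.5%), and Mir30d had it at the other 5 ages.

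**Figure D2:**
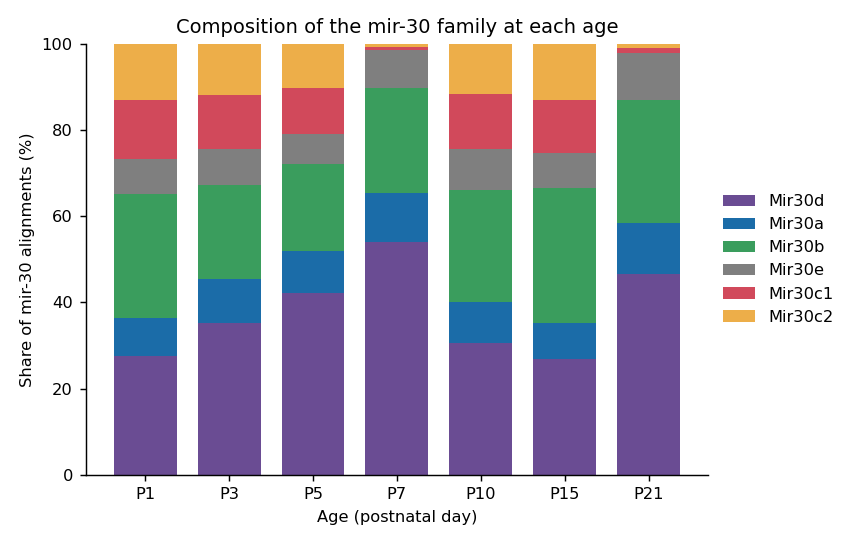
Stacked bars of the share of the family's estimated alignments (%) that fell on each mir-30 locus at each age (postnatal day). The 30c loci hold 20.9% to 26.7% at 5 ages, but 1.51% at P7 and 2.18% at P21, where Mir30d holds 54.0% and 46.7%.

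Against P21, the summed level of the 30c loci was higher by 4.14 log2 at P1 (interval 4.001 to 4.27), and by 3.74 (3.60 to 3.87) and 3.36 (3.22 to 3.50) at P3 and P5. It was higher by 4.13 (3.997 to 4.27) at P10 and by 4.13 (3.99 to 4.27) at P15. At P7 it was below P21, by a log2 difference of -1.16 (-1.37 to -0.96). As deposited, P10 and P15 lay within counting error of each other, with a log2 difference of -0.0065 between them (-0.075 to 0.062). With TMM they stood at 4.02 and 4.47 against P21. The directions against P21 were the same with scaling to the miRNA total, by median of ratios and by TMM, and per 1000000 miRNA alignments. The size of the gap between P7 and P21 was not stable, as it was -0.29 per 1000000 miRNA alignments.

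The summed level of the 4 loci other than 30c changed far less. It was 1169248, 1066169 and 1032366 FPKM at P1, P3 and P5, 785293 at P7, and 1349604, 1218190.4 and 1151428 at P10, P15 and P21. The log2 differences from P21 were 0.022 (-0.0064 to 0.051), -0.11 (-0.14 to -0.077) and -0.16 (-0.19 to -0.12) at P1, P3 and P5, and -0.55 (-0.58 to -0.52) at P7. They were 0.23 (0.19 to 0.26) and 0.081 (0.042 to 0.12) at P10 and P15. P1 thus lay within counting error of P21 as deposited, but the negative values at P3, P5 and P7 became 0.76, 0.42 and 0.10 with scaling to the miRNA total. Per 1000000 miRNA alignments, these 4 loci went from 139706 at P1 to 64953 at P21. On that scale the retina markers, which include the mir-124 genes, went from 94204 to 504089, though P10 (406935) lay below P7 (437489). Their part in the lower level of the 4 loci was not tested. As a background, the median of all 571 miRNA features differed from P21 by -0.39 log2 at P7 and -0.37 at P15, and by at most 0.049 in size at the other ages. For the 344 features with a mean of at least 20 alignments, the median was -0.67 at P7 and -0.30 at P15. At the other ages it lay between -0.19 and 0.042.

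Ratios between neighbouring genes do not depend on the scaling of a library. The ratio of Mir30a to Mir30c2 in alignments was 0.666, 0.860 and 0.931 at P1, P3 and P5, 18.5 at P7, and 0.801, 0.644 and 11.4 at P10, P15 and P21. That of Mir30e to Mir30c1 was 0.598, 0.654 and 0.663 at P1, P3 and P5, 9.86 at P7, and 0.754, 0.638 and 9.55 at P10, P15 and P21. In both pairs the 30c gene had more alignments than its neighbour at 5 ages and between 9.55-fold and 18.5-fold fewer at P7 and P21.

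The pair of chromosome 7, which holds no 30c gene, showed no such step. The ratio of Mir30b to Mir30d in alignments was 1.05, 0.619 and 0.479 at P1, P3 and P5, 0.449 at P7, and 0.851, 1.17 and 0.608 at P10, P15 and P21. It was lower at each age up to P7 and varied over a 2.61-fold range, compared with 28.8-fold for Mir30a and Mir30c2 and 16.5-fold for Mir30e and Mir30c1. The ratio of the 30c genes to each other, Mir30c1 to Mir30c2, stayed between 0.956 at P15 and 1.09 at P21, except for 1.43 at P7. Over the 7 ages their log2 levels had a Pearson r of 0.999, and that of Mir30a and Mir30e was 0.971. These are descriptions over 7 ages that share their libraries.

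**Figure D3:**
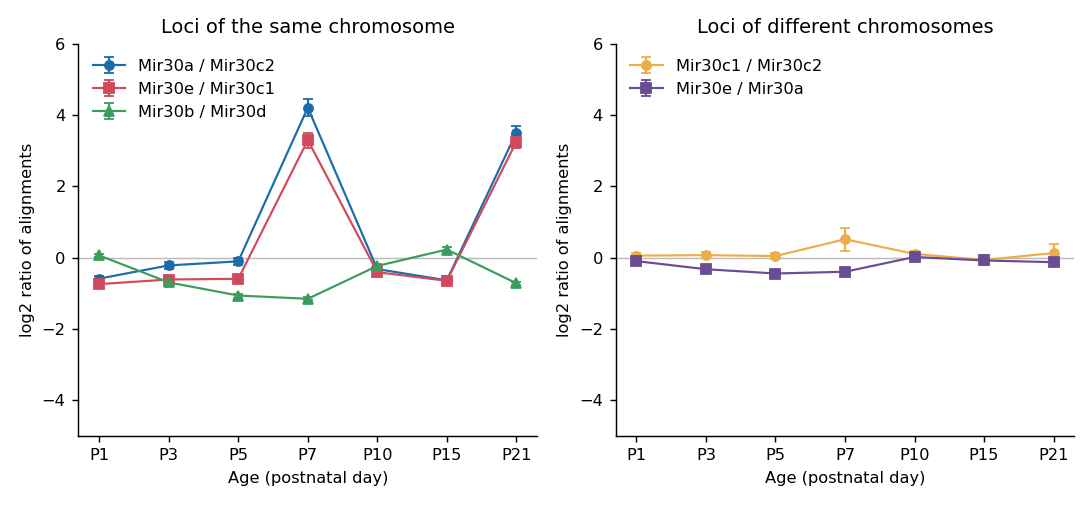
Log2 ratio of alignments between mir-30 loci at each age (postnatal day), for pairs on the same chromosome (left) and on different chromosomes (right), with 95% counting intervals as bars. The ratios of Mir30a to Mir30c2 and of Mir30e to Mir30c1 rise above 3 at P7 and P21 only, while the other 3 ratios stay between -1.2 and 0.6.

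The low 30c values of P7 were present in both parts of that library. The methods state that the same pool was sequenced 2 times, so the parts are no replicates of the age. The cause of the low values was not tested. The deposited P7 value of Mir30c1 equals 141 alignments of the smaller step and 99 of the larger, and that of Mir30c2 equals 84 and 79. Expressed as the level each part alone would give, if both parts counted equally, Mir30c1 was at 8358 and 8662 FPKM and Mir30c2 at 6090 and 8453 FPKM. None of these 4 values exceeded 8662 FPKM, against 166388 FPKM or more for these loci at P5. Among 197 miRNA features between 20 and 150 times the worth of 1 alignment of the P1 library, 98.5% could be resolved in this way. In the resolved features the larger step carried more signal, with a median log2 ratio of 1.03 (5% to 95% of features 0.14 to 1.79), so the parts did not contribute equally. The log2 ratio was 0.051 for Mir30c1 (-0.32 to 0.42) and 0.47 for Mir30c2 (0.030 to 0.92). That of Mir30c1 lay below the 5% bound of the features, though its interval included that bound. The parts of the P21 library were not resolved here.

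**Figure D4:**
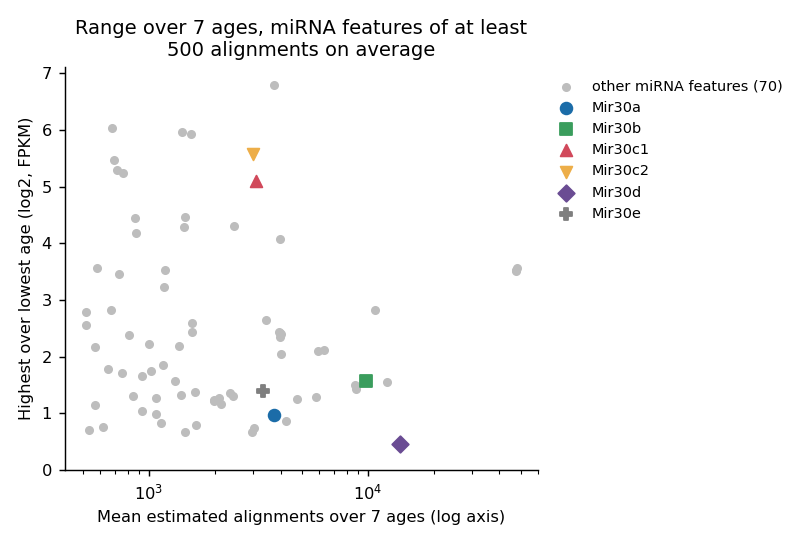
Highest over lowest age (log2, FPKM) against the mean of estimated alignments over 7 ages (log axis) for the 76 miRNA features with a mean of at least 500, each a point, mir-30 loci in colour. Mir30d has the smallest range (0.46), and Mir30c1 and Mir30c2 lie at 5.10 and 5.58.

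The plot of the range over ages places the family at both ends of the abundant miRNAs. Counted from the smallest of 76 ranges, Mir30d stood at place 1, Mir30a at 10, Mir30e at 26, Mir30b at 30, Mir30c1 at 68 and Mir30c2 at 72.

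Mir384, which carries the same seed on the X chromosome (chrX:76301763-76301850 in Rnor_6.0, minus strand), was at 71443, 48331 and 32564 FPKM at P1, P3 and P5, 22679 at P7, and 68166, 69280 and 39056 at P10, P15 and P21. As deposited, Mir384 was lowest at P7 like the members, and its P21 value lay above those of P5 and P7. As a share of all miRNA alignments, Mir384 was lowest at P21, as were Mir30a, Mir30b and Mir30d.

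Of 338 other miRNA features with a mean of at least 20 alignments, the most like in course to the 4 loci other than 30c were Mir3578 (Pearson r = 0.956 of log2 levels over 7 ages), AABR07027810.3 (0.946) and Mir3597-1 (0.928). Per 1000000 miRNA alignments these r values were 0.792, 0.861 and 0.742. Most like the 30c sum were Mir151b (0.985), Mir153 (0.949) and Mir98 (0.947), and per 1000000 miRNA alignments the values were 0.875, 0.946 and 0.913, with Mir151b the lowest of them. Their courses were much flatter than that of 30c, with a log2 range of 1.15 for Mir151b, 3.01 for Mir153 and 1.77 for Mir98 against 5.30 for the 30c sum.

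A comparison list of miRNAs known from maturing neurons, glia and photoreceptors had a median change from P1 to P21 above that of each mir-30 locus as deposited. Of its 17 genes 15 were found. From P1 to P21 8 were at least 2-fold higher (31.5% of all miRNA features), none was 2-fold lower (32.9%) and 7 were neither. Their median change was 2.83 log2, against -0.084 for the 4 loci other than 30c and -0.049 over all 571 features. The lowest level was at P7 for 4 of the 15 (21% of all miRNA features), and the highest at P10 for 4 (11.4%). The 15 include numbered copies of the same miRNA, so these are counts of loci. Mir124-1, Mir124-2 and Mir124-3, for example, had nearly equal means of 47576, 47917 and 47450 alignments.

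Markers of other tissues were looked at beside the 30c step, and their part in it was not tested. The endothelial and mural markers Mir126a, Mir143 and Mir145 (3 of 5 listed) summed to 13203, 6377 and 5587 per 1000000 miRNA alignments at P1, P3 and P5, 2458 at P7, and 5575, 9627 and 7263 at P10, P15 and P21. They were lowest at P7, and at P21 they lay above P3, P5, P7 and P10. On the same scale the 30c sum was lowest at P7 and P21, and the other 4 mir-30 loci were lowest at P21. Muscle markers (3 of 5) ranged from 50.7 to 1625, with P3 and P5 high, blood markers (4 of 4) from 306 to 1129 and pigment epithelium markers (2 of 2) from 23088 to 58504. None of the markers found was at 0 at any age.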

How the data were processed

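Total RNA of rat retinas was made into small RNA libraries with an Ion Torrent kit from a pool of 3 retinas per age. The authors mapped the trimmed reads to Ensembl noncoding RNAs (Rnor_6.0), ran Cufflinks and Cuffdiff 2.2.1.3, and deposited FPKM values for 21 pairs of ages, with fold changes, p-values and q-values that were not used here. The aligner and the rule for reads that fit several genes are not given in the sources used here. A feature has the same FPKM in every pair, so 1 value per age was taken.

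Levels were compared as log2(FPKM + 1). With 1 value per age no test was possible, and each log2 change is on this scale. The members and lists were chosen with earlier results of these data known. Named beside the members are the 3 miRNA features most like each summed level by Pearson r, those low at both P7 and P21, and Mir384 for its seed, the latter chosen after the values were seen.

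The FPKM worth of 1 alignment was found for 493 of 724 feature lengths at P1, those of all 6 members among them, and interpolated for the rest. Of the low values, 99.98% at P1 were whole numbers (within 0.02), and 100% in the other libraries were whole-number sums of the library's steps (within 0.0006). The worth of 1 alignment and the steps were fitted to these same values, so the percentages are no independent check. Estimated alignments assume equal signal per step. Shares and ratios given in alignments weight each alignment by the size of its step. They equal shares and ratios of counted alignments only where the features compared split alike between the steps. At P7 this split differed between features, with a log2 ratio of 0.051 for Mir30c1, 0.47 for Mir30c2 and a median of 1.03. Tested on simulated data for 5491 features, the steps of 7 of 7 libraries were recovered, and 98.8% of 1200 intervals held the true change. The simulation drew independent counts with equal signal per step. It held no unequal parts, no reads shared between genes and no PCR copies, so its coverage does not speak to these. Without the assumption of equal signal per step, totals of the P15 library could lie between 127540 and 774903 alignments.

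Alternatives were scaling to the miRNA total, median of ratios, TMM (trimming 30% of ratios and 5% of levels), pseudocounts of 0.1 and 10, filters of 100 FPKM and 20 alignments, alignments per 1000000, and the mean of all ages as reference. The range among features of at least 500 alignments, the parts of the P7 library, the count of features low at P7 and P21, the 4 steps at P21 and the use of the largest step were added after the data were seen. Python 3.11.15, numpy 2.4.6 and pandas 2.3.3 were used.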

Additional observations from a re-analysis of the deposited data

How the results depend on the processing

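Each age has 1 library value, so leaving out a replicate was not possible, and the intervals hold no variation between animals. No paired analysis was possible because each age has 1 library value. The smallest value of a member, that of Mir30c2 at P7, equals 163 alignments. How many of these were shared between genes or copied by PCR is not known, and the part of depth was not tested. Changing the pseudocount to 0.1 or 10 left all 36 values within their counting intervals, with a largest shift of 0.00073 log2. The step of the 30c loci at P7 and P21 kept its direction under every alternative run, while the direction of the other 4 loci against P21 depended on the scaling. Relative to P21, the miRNA-total scaling moves all features up by 0.63, 0.87 and 0.58 log2 (P1, P3 and P5) and by 0.65, 0.24 and 0.48 (P7, P10 and P15). Where a value left its counting interval, it is given below, and the cause was not tested.

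For the 30c share of the family, alignments in place of FPKM gave 26.7%, 24.5%, 20.9%, 1.51%, 24.3%, 25.4% and 2.18% in the order of ages. For the 30c sum against P21, the values from P1 to P15 were 4.76, 4.60, 3.94, -0.51, 4.38 and 4.61 with the miRNA total, and 5.13, 4.53, 3.89, -0.29, 4.34 and 4.40 per 1000000 miRNA alignments. TMM gave 3.99 (P1), -0.81 (P7) and 4.47 (P15), and median of ratios gave -0.91 (P7) and 4.37 (P15). Against the mean of all ages the values were 1.52, 1.12, 0.74, -3.78, 1.52 and 1.51.

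For the sum of the other 4 loci against P21, the values from P1 to P15 were 0.65, 0.76, 0.42, 0.10, 0.47 and 0.56 with the miRNA total, so that P3, P5 and P7 changed sign. They were 1.10, 0.67, 0.33, 0.25, 0.50 and 0.46 per 1000000 miRNA alignments, with the same changes of sign. Values with TMM were -0.12, -0.24, -0.25, -0.20, 0.11 and 0.43, and those against the mean of all ages were 0.092, -0.041, -0.088, -0.48, 0.30 and 0.15. Median of ratios gave -0.055, -0.15, -0.29, -0.30 (P1 to P7) and 0.32 (P15). With TMM and median of ratios P1 changed sign.

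For single loci at P21 against P1, the miRNA total gave -0.69 for Mir30a, -1.17 for Mir30b, -4.72 for Mir30c1, -4.79 for Mir30c2, -0.39 for Mir30d and -0.72 for Mir30e, and Mir30d thereby changed sign. Per 1000000 miRNA alignments the same loci had -1.07, -1.55, -5.10, -5.17, -0.76 and -1.10, again with a change of sign for Mir30d. TMM gave 0.074 for Mir30a, -0.40 for Mir30b, 0.38 for Mir30d and 0.044 for Mir30e, with changes of sign for Mir30a and Mir30e. Median of ratios gave 0.0080 for Mir30a, its sign changed, -0.47 for Mir30b and 0.31 for Mir30d.

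For the log2 ratios within pairs, alignments in place of FPKM gave -0.59, -0.22, -0.10, -0.32 and -0.64 for Mir30a over Mir30c2 (P1, P3, P5, P10 and P15), with P5 changing sign. They gave 0.064, -0.69, -1.06, -1.15, -0.23, 0.23 and -0.72 for Mir30b over Mir30d in the order of ages, with P1 and P15 changing sign. For Mir30e over Mir30c1 they gave -0.74, -0.61, -0.59, 3.30, -0.41, -0.65 and 3.26. Of all miRNA features, 9.46% were lowest at P7 with TMM, and 5.78% and 6.3% were highest at P10 with the miRNA total and TMM, against 21% and 11.4% as deposited.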
